A study of Rattus norvegicus with 6 samples.

Results

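miR-338 is a microRNA (miRNA) gene that lies inside Aatk, the gene of the apoptosis-associated tyrosine kinase, and its hairpin gives 2 mature products, miR-338-3p and miR-338-5p. These 2 arms are the members described here, out of 719 rat miRNAs on the arrays; they were picked by the name of their probes, and the locus was picked because miR-338-3p had been called higher with interleukin-8 (IL-8) in these same data. Its difference between the groups is therefore given as a description, with no test. The arms had 6 of the 1730 rat miRNA probes and 40 of 14380 spots per array, none of them saturated or flagged as outliers. Rat primary skeletal muscle cells (RSkMC), bought as cryopreserved cells of newborn limb muscle, spent 11 days in a medium with 2% horse serum that induces myogenic differentiation. They received IL-8, a neutrophil-attracting chemokine, as protein produced in bacteria, at 1 ng/ml (IL-8 group, n = 3 arrays) or no agent (control group, n = 3 arrays). The growth text of the labels speaks of IL-8 for all 6 samples, and the groups follow the titles and the agent entry. No label states that replicates were separate cultures, so the spread between arrays may be technical and p-values measure only that spread. The 3 IL-8 arrays shared 1 slide and the 3 control arrays shared another, which means that a slide effect and an IL-8 effect cannot be told apart.

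A miRNA hairpin is cut into a short duplex, 1 strand of which usually stays in the Argonaute complex, where the seed (bases 2 to 8) selects target mRNAs. miR-338-3p is best known from the nervous system: in mice it acts with miR-219 in the maturation of oligodendrocytes, and in rat neurons it is known to act in axons on the mRNA of a cytochrome c oxidase subunit. The miR-338-5p arm is the less studied strand. In the RefSeq annotation of the GRCr8 assembly, Mir338 lies within the span of Aatk on chromosome 10 and on the same, minus, strand, and Mir3065 lies in the same span on the plus strand; no further gene lies within it. Exons were not compared, so the intronic position was not checked here.

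The hairpin (RefSeq, GRCr8, chromosome 10, minus strand) is shown with both mature arms in capitals, and the mature products of this locus are shown with the seed in capitals, because arm and strand decide what each probe can capture.
Mir338 hairpin: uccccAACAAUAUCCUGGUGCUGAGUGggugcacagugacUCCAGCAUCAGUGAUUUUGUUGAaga
rno-miR-338-3p: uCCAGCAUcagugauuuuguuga
rno-miR-338-5p: aACAAUAUccuggugcugagug
rno-miR-3065-5p: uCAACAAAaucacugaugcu
rno-miR-3065-3p: uCAGCACCaggauauuguugggga
All 20 bases of miR-3065-5p are complementary to miR-338-3p, and 19 of the 24 bases of miR-3065-3p are complementary to miR-338-5p. Of the 719 array miRNAs, 651 had a mature sequence in the RefSeq table, and 0 of them shared the seed of miR-338-3p or of miR-338-5p, or bases 2 to 7 of either.

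The array carried 2 probes for miR-338-3p, each with 10 spots, placed in the array files at chr10:109427033-109427054 and chr10:109427034-109427054 on rn4. In these listings, which run downwards, the span is 1 base shorter than the probe. The probe sequences from the array files are shown because the probes differ by a single base, in capitals, which pairs with the first base of the miRNA.
23-base probe: tcaacaaaatcactgatgctggA
22-base probe: tcaacaaaatcactgatgctgg
The shorter probe lies within the longer, both capture the same RNA and both sit on the same arrays, so they are not independent measurements. The 4 probes of miR-338-5p, with 5 spots each, have 12 to 15 bases and pair with the 3′ part of that arm; they lie within chr10:109427005-109427018 on rn4. Their longest is shown with the stretch held by all 4 in capitals.
Longest miR-338-5p probe: CACTCAGCACCAgga

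miR-338-3p was detected in both groups and its signal was higher on every IL-8 array than on any control array. Signals are the processed spot intensities, background-subtracted by the scanner software and not yet scaled between arrays. Without scaling, the median of the 167 miRNAs tested below was also higher with IL-8, by 0.24 log2 units. On the scaled levels used below, 27 of the 167 (16.2%) had all IL-8 arrays above the control arrays. This share was not counted on unscaled signals. The 23-base probe averaged 35.9, 35.5 and 36.6 on IL-8 replicates 1, 2 and 3, against 17.7, 18.98 and 27.7 on control replicates 1, 2 and 3. The 22-base probe averaged 34.5, 30.3 and 31.9 on the IL-8 arrays, against 14.2, 15.2 and 22.6 on the control arrays. The IL-8 arrays lay close together, while control replicate 3 lay between the IL-8 arrays and the other controls. The group means were 36.0 ± 0.593 with IL-8 and 21.5 ± 5.45 in control for the 23-base probe, and 32.2 ± 2.15 with IL-8 and 17.3 ± 4.59 in control for the 22-base probe (SD, n = 3 arrays each). The difference of the means was 14.5 units for the longer probe and 14.9 units for the shorter.

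**Figure D1:**
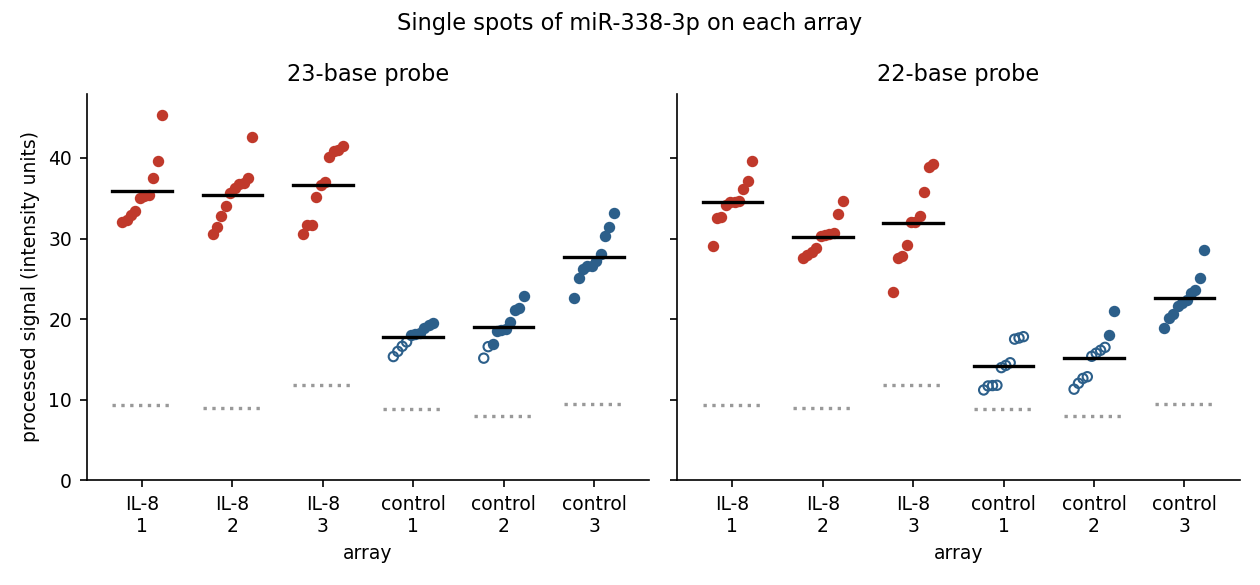
Processed signal of every spot of miR-338-3p (10 per probe and array) on the 3 IL-8 and 3 control arrays, for the 23-base probe (left) and the 22-base probe (right). Filled points were called well above background, open points were not, black bars are array means and dotted bars the 95th percentile of the array's negative control spots; the highest control spots, at 33.2 and 28.5, belong to control replicate 3.

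Single spots showed the same order with some overlap. Of the 30 IL-8 spots, 21 of the 23-base probe and 24 of the 22-base probe were brighter than every control spot of that probe. The lowest IL-8 spot stood at 30.5 for the 23-base probe, where the highest control spot stood at 33.2, and at 23.3 for the 22-base probe, where the highest control spot stood at 28.5. The control spots above the lowest IL-8 spot numbered 2 for the longer and 3 for the shorter probe, and all of them were on control replicate 3. On control replicates 1 and 2 no spot exceeded 22.9 for the longer and 21.02 for the shorter probe. Spots of an array share its RNA and are not replicates of the condition.

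The software also makes a detection call for each spot, and these calls differed between the groups. The lowest probe signal called well above background was 12.3 to 15.6 on the IL-8 arrays and 16.0 to 17.1 on the control arrays, without overlap; the part of this difference in the calls was not tested. All 30 IL-8 spots were well above background for each probe, against 24 of 30 control spots for the 23-base probe and 12 of 30 for the 22-base probe. On control replicates 1, 2 and 3 the 22-base probe had 0, 2 and 10 of 10 spots called, and the 23-base probe had 6, 8 and 10. With the rule that more than 50% of the spots must be called, the longer probe was detected on all 6 arrays and the shorter on the 3 IL-8 arrays and on control replicate 3 alone. The shorter probe therefore entered the analysis through the IL-8 arrays. By the same rule 301 to 326 of all 1730 rat miRNA probes were detected on the IL-8 arrays. On the control arrays 269 to 294 were detected, so detection was more frequent with IL-8 over all probes too. The part of this general difference in the calls of miR-338-3p was not tested.

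These signals stand on a background larger than themselves. Before subtraction the spots of the 23-base probe averaged 106, 109 and 118 on the IL-8 arrays and 93.8, 96.8 and 102 on the control arrays, and the background subtracted there was 70.1, 73.3 and 81.1 on the IL-8 arrays and 76.0, 77.8 and 74.1 on the control arrays. The groups did not overlap before subtraction either, whereas the subtracted background did overlap between them. The 1401 probes that were well above background on no array had array medians of -4.10 to -1.12 with IL-8 and -4.37 to -2.81 in control, and the group means of these medians differed by 0.899 units (exact permutation test, two-sided, p = 0.6). The 434 negative control spots had medians of 4.14 to 6.03 on the IL-8 arrays and 3.12 to 4.83 on the control arrays (exact permutation test, two-sided, p = 0.3). Their 95th percentiles also overlapped between the groups, but their highest spots did not. The brightest stood at 16.2 to 18.8 with IL-8 and 36.6 to 82.5 in control (exact permutation test, two-sided, p = 0.1). On each control array it was brighter than every control spot of miR-338-3p, the highest of which stood at 33.2. The part of such spots in the difference was not tested. With 3 arrays against 3, the smallest p this test allows is 0.1. With the negative control median of each array subtracted as well, a setting chosen after seeing the data, the scaled log2 difference of miR-338-3p was 0.72.

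For the comparison over all miRNAs each array was divided by the 75th percentile of the 264 probes detected on all 6 arrays, and log2 was taken, so a level of 0 is that percentile. The percentile was 540 to 569 on the IL-8 arrays and 440 to 497 on the control arrays (exact permutation test, two-sided, p = 0.1). On this scale, as the mean of both probes, miR-338-3p stood at -4.02, -4.07 and -3.98 on the IL-8 arrays and at -4.79, -4.81 and -4.31 on the control arrays. The lowest IL-8 array lay 0.24 above the highest control array, a gap slightly smaller than the control SD of 0.28. The means were -4.02 ± 0.04 with IL-8 and -4.64 ± 0.28 in control (SD, n = 3 arrays each), a log2 difference of 0.62 or 1.53-fold. The difference was 0.54 for the 23-base probe (1.45-fold) and 0.69 for the 22-base probe (1.61-fold). The shorter probe was detected on only 1 of the 3 control arrays, so its fold rests in part on control signals that were not well above background. With only the probe detected on all 6 arrays, the log2 difference of miR-338-3p was 0.54 (1.45-fold). Without scaling it was 0.81, where the median of all tested miRNAs was also higher, at 0.24 instead of 0.016. In bulk RNA, a change in the number of cells that hold a miRNA and a change in its amount per cell cannot be told apart.

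Among the 167 miRNAs that were tested by limma, miR-338-3p had the largest positive difference, and the next stood at 0.43. By mean level it had rank 30 from the lowest, among the dimmer miRNAs, where few signal units make a large log2 difference. limma with Benjamini-Hochberg adjustment at 0.05 called 10 miRNAs in either direction (5.99% of those tested). miR-338-3p was 1 of the 5 called higher (2.99%) and 1 of 27 whose IL-8 arrays all lay above the control arrays (16.2%). Since this contrast chose the locus, nothing is read from either count or from the rank of its difference. limma called 0 miRNAs higher without IL-8 replicate 2, without IL-8 replicate 3, with all probes entering the scaling percentile and with no filter on dim probes (15, 16, 1 and 19 higher at unadjusted p under 0.05, in that order), so miR-338-3p was not called under any of these settings. It called 1 miRNA higher with the normexp background, without control replicate 1, without control replicate 2 and without IL-8 replicate 1. Whether miR-338-3p was among those called under these or the remaining settings is not reported here. A replicate block changes no difference in this design and could not move the rank of miR-338-3p. No floor, outlier spots kept and the deposited value table leave the difference of miR-338-3p at 0.615 and say little of its rank. This miRNA kept the largest difference under 14 of the 15 other settings that leave all arrays in, the block counted among them. The exception was normexp background correction with an offset of 50, where its log2 difference was 0.038 and 19 miRNAs had a larger one; this setting changes the background method and adds the offset together.

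**Figure D2:**
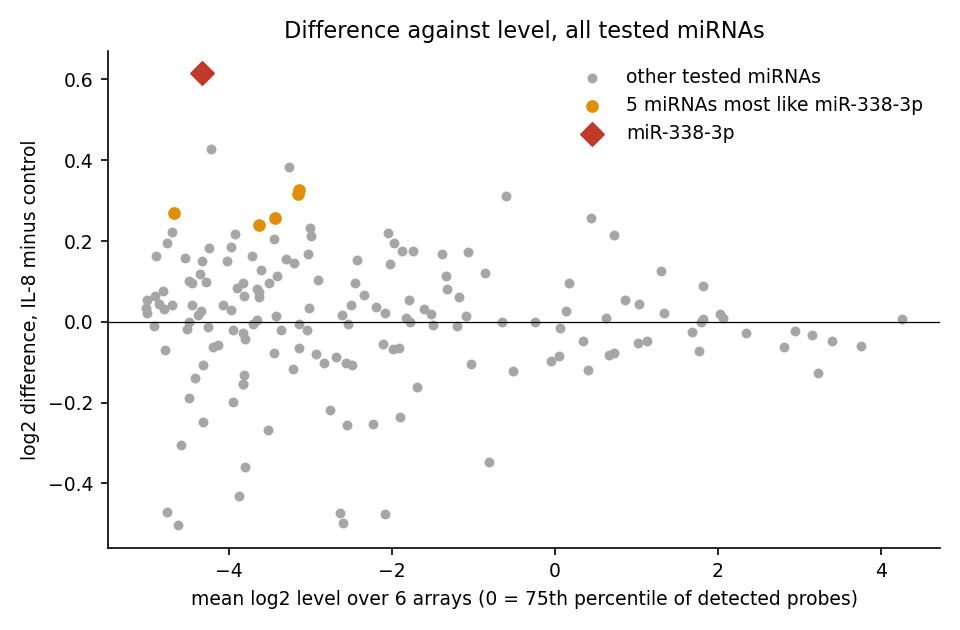
Log2 difference between IL-8 and control (vertical) against the mean log2 level over 6 arrays (horizontal) for the 167 tested miRNAs. The diamond is miR-338-3p, at a difference of 0.62, and the orange points are the 5 miRNAs most like it, at 0.24 to 0.33; levels of different probes measure brightness, not relative amount.

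The control arrays disagreed on miR-338-3p more than on most miRNAs. Its control SD of 0.28 compares with a median control SD of 0.084 over the tested miRNAs, and 12 of them had a larger one. Its IL-8 SD of 0.04 was below the median of 0.057, and 110 miRNAs had a larger one. Control replicate 3 stood 0.49 above the mean of the other controls, against a median of 0.082 over all tested miRNAs, and 6 miRNAs had a larger excess. Control replicate 3 was the highest control for 99 of the 167. Without it the log2 difference of miR-338-3p was 0.78 (1.72-fold), and leaving out any other array gave 0.54 to 0.63.

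**Figure D3:**
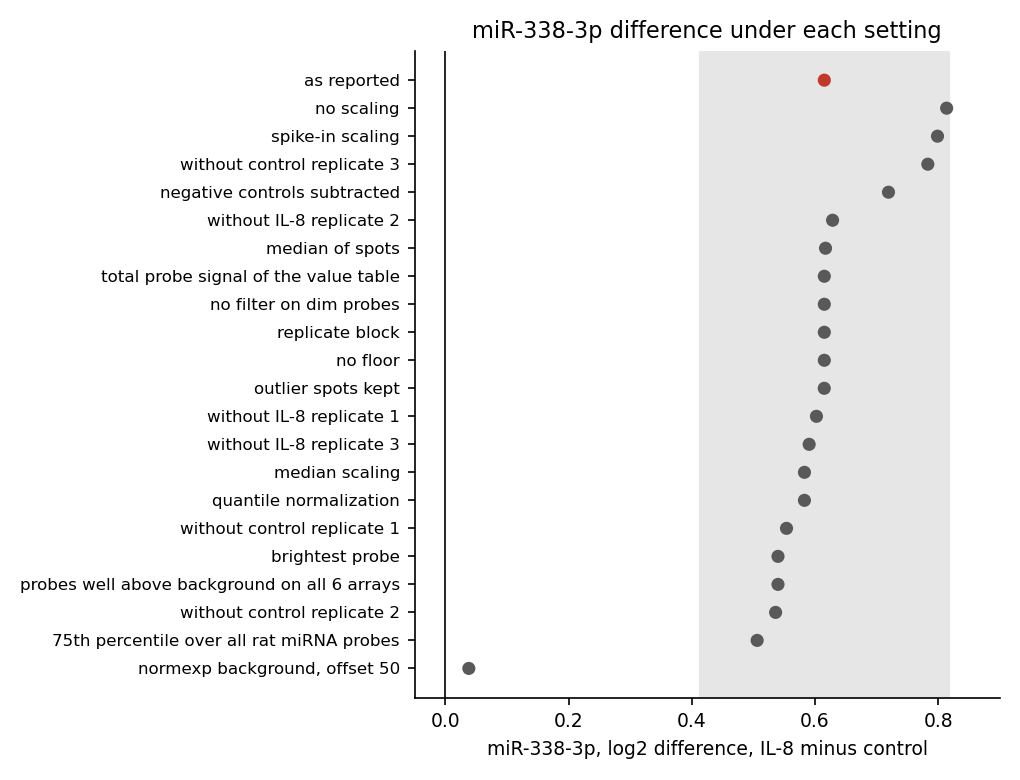
Log2 difference of miR-338-3p between IL-8 and control under each setting of scaling, background, probe summary, filter and left-out array, with the reported value at the top. The grey band is the reported value of 0.62 plus and minus the SD between replicates, 0.20; the normexp point at 0.038 is the only one outside it.

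By a rule of likeness, the 5 miRNAs whose log2 levels, centred on their own mean, differed least from miR-338-3p over the 6 arrays were miR-411-3p, miR-376a-3p, miR-218a-5p, miR-15b-5p and miR-30e-3p. Their root mean square difference was 0.184, 0.188, 0.194, 0.205 and 0.206, against a median of 0.339 over all other tested miRNAs. The likeness rests on the same 6 arrays and the same contrast and is a description. miR-411-3p, from the imprinted Dlk1-Dio3 region, stood at -3.02, -2.93 and -2.99 on the IL-8 arrays and at -3.42, -3.32 and -3.18 on the control arrays (log2 difference 0.33, limma adjusted p = 0.0372). It was the only one of the 5 that passed the test, and its groups did not overlap. miR-376a-3p of the same region differed by 0.32, with overlapping groups, and miR-30e-3p by 0.27, also overlapping (limma adjusted p = 0.191 and 0.153). miR-218a-5p differed by 0.26 and miR-15b-5p, a cell cycle regulator of the miR-16 family, by 0.24 (limma adjusted p = 0.191 and 0.158). The groups of these 2 did not overlap either, with narrow gaps of 0.00763 and 0.0202. In all 5, control replicate 3 was the highest control, as it was for miR-338-3p and for 99 of the 167 tested miRNAs. The rule of likeness favours miRNAs with this order, so nothing is read from it.

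**Figure D4:**
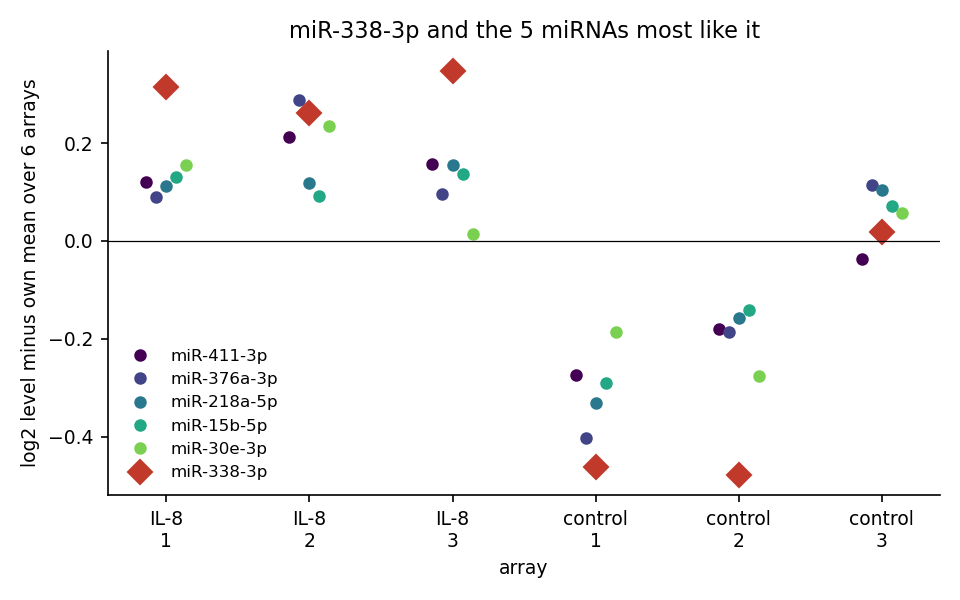
Log2 level of miR-338-3p (diamonds) and of the 5 miRNAs most like it (circles, shifted sideways for legibility), each minus its own mean over the 6 arrays, on the IL-8 and control arrays. miR-338-3p spans 0.35 on IL-8 replicate 3 to -0.48 on control replicate 2, and on control replicate 3 it stands at 0.019.

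The miR-338-5p arm was not detected. None of its 60 spots was well above background in IL-8 or in control, and the highest single spot stood at 7.86 with IL-8 and 7.77 in control, below the 95th percentile of the negative controls on every array, which was 9.0 to 11.9 with IL-8 and 7.92 to 9.46 in control. The mean over its 4 probes was 0.669, -2.96 and -3.32 on the IL-8 arrays and -1.66, -4.78 and -2.93 on the control arrays. The groups overlapped, and the difference of 1.25 units was smaller than the SD between replicates, 1.91. No fold is given, since both groups lay below background. The 14-base probe was the highest of the 4, at 3.65 ± 2.97 with IL-8 and 1.88 ± 2.27 in control, and the 12-base probe stood at -4.66 ± 2.12 with IL-8 and -6.37 ± 1.46 in control (SD, n = 3 arrays each). The 5p probes cover 12 to 15 bases and the 3p probes 22 or 23, so their signals cannot be compared as amounts of the arms.

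The products of the opposite strand were not detected either. miR-3065-5p had 0 of 60 spots well above background in each group, with array means over its 2 probes of -6.63 to -2.95 with IL-8 and -7.59 to -5.88 in control. miR-3065-3p likewise had 0 of 60, at -2.37 to -0.00862 with IL-8 and -3.43 to -2.37 in control. Since the miR-3065-5p probes carry part of the miR-338-3p sequence itself, the 2 sets of probes read transcripts of opposite strands of the same stretch of the genome, and signal was seen on the miR-338-3p strand alone. Among the miRNAs to which the array files give an rn4 position, no other was placed within 5 Mb of miR-338. The files give miR-3065 no such position, so this search could not see every neighbour.

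**Figure D5:**
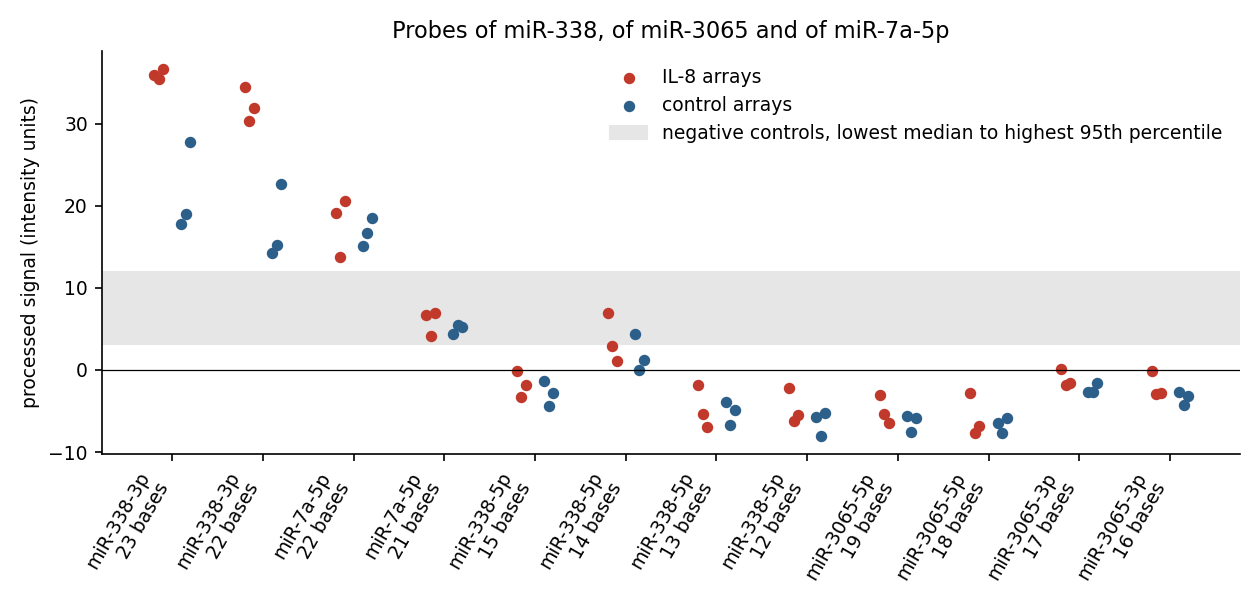
Mean processed signal on each IL-8 array and each control array for the probes of both miR-338 arms, both miR-3065 arms and miR-7a-5p, by probe length. The grey band runs between the lowest median of the negative controls, 3.12, and their highest 95th percentile, 11.9; on all 6 arrays only the 2 miR-338-3p probes and the 22-base miR-7a-5p probe lie above it.

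Another miRNA has a 3′ part almost the same as that of miR-338-3p. Over the 1724 probes of other miRNAs, the longest run shared with the miR-338-3p probe was 13 bases, in miR-7a-5p, a miRNA rich in brain and pancreatic islets and placed by the array files on chromosomes 1 and 17. The shared run covers bases 10 to 22 of both miRNAs and is shown in capitals, since an RNA that matches part of a probe could add signal to it.
rno-miR-338-3p: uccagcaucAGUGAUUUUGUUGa
rno-miR-7a-5p: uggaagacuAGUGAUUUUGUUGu
The 22-base probe of miR-7a-5p averaged 19.1, 13.7 and 20.5 on the IL-8 arrays and 15.1, 16.7 and 18.5 on the control arrays, and it was detected on IL-8 replicates 1 and 3 and on control replicate 3. Its group means were 17.8 ± 3.60 with IL-8 and 16.8 ± 1.69 in control (SD, n = 3 arrays each), and the groups overlapped. The 21-base probe stood at 5.93 ± 1.59 with IL-8 and 5.02 ± 0.569 in control. Whether miR-7a-5p added to the miR-338-3p signal was not tested.

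The listed miRNAs of tissues in which miR-338 is known gave no change past the test, but few of them were tested. Of 6 oligodendrocyte and Schwann cell miRNAs, only miR-219a-5p, the partner of miR-338 in myelinating glia, was well above background, on all 6 arrays, at -4.53 ± 0.06 with IL-8 and -4.51 ± 0.21 in control (SD, n = 3 arrays each; log2 difference -0.02, limma adjusted p = 0.953). The arms miR-219a-1-3p and miR-219a-2-3p, miR-219b and miR-9a-3p had no probe value above 0 on any array, and miR-9a-5p reached 4.22. The summed mean signal of this list was -2.0 to 14.2 on the IL-8 arrays and -8.62 to 0.973 on the control arrays. Of 7 neuron miRNAs, miR-128-3p and miR-7a-5p were detected on at least 1 array, and miR-128-3p was the 1 tested, with a log2 difference of -0.15 (limma adjusted p = 0.158). The neuron-defining miR-124-3p and miR-124-5p had no value above 0 on any array. miR-129-5p of this list was not detected. Its partner arms miR-129-1-3p and miR-129-2-3p, which the list does not hold, were called lower (log2 difference -0.47 and -0.48, limma adjusted p = 0.00669 and 0.0130). The summed mean signal of the neuron list was 27.7 to 44.8 on the IL-8 arrays and 23.8 to 30.7 on the control arrays. The part of glial or neuronal cells in the miR-338-3p difference was not tested.

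Of 7 bone and cartilage miRNAs, 4 were tested and 0 passed limma in either direction (3 higher and 1 lower, median log2 difference 0.049 beside 0.016 over all tested miRNAs). miR-140-3p, typical of cartilage, differed by 0.15 (limma adjusted p = 0.491). None of 8 islet and epithelial miRNAs and none of 5 blood miRNAs was well above background on any array. The markers of the labelled cell type were missing too: 0 of the 10 striated muscle miRNAs found on the array was well above background, with no probe mean above 9.23. Of 7 fibroblast and smooth muscle miRNAs 6 were detected, and 0 passed limma in either direction (median log2 difference -0.024, miR-145-5p at -0.08 with limma adjusted p = 0.50). Over all miRNAs 23 were higher and 18 lower at unadjusted p under 0.05.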

How the data were processed

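Total RNA of 6 samples (RNA integrity numbers 9.5 to 10.0, per the labels' protocols) was labelled with Cy3 and hybridised to 1 Agilent array each. The deposited values are linear fluorescence intensities, background-subtracted and spatially detrended with Agilent Feature Extraction 10.10.1.1 per the file headers, and not normalized between arrays. The deposited value table repeats the total probe signal of each array (100% of values equal within a relative tolerance of 0.0001); its column medians were 0.307, -0.802 and -1.18 for IL-8 and -0.529, -1.35 and -1.17 for control.

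Spots of a probe were averaged without outlier spots, divided by the array's 75th percentile over probes detected on all arrays, floored at a log2 level of -5.04 and put on the log2 scale. A probe was detected where more than 50% of its spots were well above background. A miRNA was the mean of its probes detected on all 3 arrays of a group, and 167 were tested. limma 3.58.1 in R 4.3.3 (data.table, version 1.17.8) was used after a test on simulated data, with Benjamini-Hochberg adjustment over the 167. The simulated shifts were larger than any difference seen here, so that test says little of changes of the size reported. pandas 2.3.3 and matplotlib 3.10.9 in Python 3.11.15 handled sequences and plots. Precision is limited by having 3 arrays per group. The IL-8 arrays had 168 to 180 miRNAs well above background and the control arrays 154 to 164. The members, lists and alternatives were chosen with earlier results of these data known. Named miRNAs are both arms, miRNAs sharing a seed or the locus, the 5 most alike and the member of smallest p in each list. miR-7a-5p, the 3p arms of miR-129 and the list members named as not detected were named after their values were seen.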

Additional observations from a re-analysis of the deposited data

How the results depend on the processing

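The log2 difference of miR-338-3p stayed above 0 under all 15 other settings and all 6 leave-outs, at 0.54 to 0.78 over the leave-outs. It was 0.615 with a replicate block, no filter on dim probes, no floor, outlier spots kept or the deposited value table. These settings barely change the values that enter it, so they say little of its stability. It left the band of 1 SD between replicates only with the normexp background, at 0.038, a setting that changes the background method and adds an offset of 50 together; the cause was not tested. There 19 miRNAs had a larger difference, against 0 otherwise and 0 in every leave-out (lowest 0, highest 0). The difference of miR-338-5p, 1.25 signal units, ran between -0.016 and 1.98 when single arrays were left out, so its sign rests on IL-8 replicate 1; it was not computed under the scalings, filters and floor, which act on log2 levels it does not have.

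The number of miRNAs called by limma was 10, of which 5 were higher. Scaling by the array median gave 15, of which 5 were higher; quantile normalization gave 17, of which 8 were higher. Omitting the scaling gave 51, of which 50 were higher, and scaling on the spike-ins gave 31, all higher. The normexp background gave 24, of which 1 was higher, and testing all miRNAs with no filter on dim probes gave 1, which was lower. With the 75th percentile over all probes limma called 0, with 9 at unadjusted p under 0.05, of which 1 was higher. It was 8, of which 3 were higher, with a replicate block; the correlations of same-numbered deviations were 0.287, 0.330 and 0.0854, and IL-8 replicate 3 correlated best with control replicate 2, so the numbers are not taken as pairs. Leaving out single arrays gave 1, which was lower (without IL-8 replicate 2 or 3), to 29 (without control replicate 3), with 5 without control replicate 2 and 3 without IL-8 replicate 1. The causes of these moves were not tested. Most probes lie near background, which limits what the arrays show of miR-338-5p and of the 22-base probe in control.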
